A study of Cavia porcellus with 12 samples.

Results

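Hepatic mRNA of albumin, the main apolipoproteins and the genes that build very-low-density lipoprotein (VLDL) was compared between guinea pigs with NASH, the fatty liver disease with inflammation and cell injury, and controls. The group of genes was given as 10 names (*ALB*, *APOA1*, *APOA2*, *APOA4*, *APOB*, *APOE*, *APOH*, *MTTP*, *TM6SF2* and *VTN*), and its members were those of them that are rows of the deposited expression table. Of the 10 names, 9 were rows of that table, out of 11896 genes in all, and *APOA4* was not analysed here. The names are human orthologue symbols that the authors gave to guinea pig loci, and no member shared its locus with another symbol.

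The study sequenced liver mRNA from 12 female Dunkin Hartley guinea pigs, each a sample of its own. The 6 controls ate chow and the 6 animals with NASH ate a high-fat diet that also held sucrose and cholesterol, both for 25 weeks (the labels give no age). The sequenced animals with NASH were those with bridging fibrosis, so they stand for the advanced end of the disease in this diet model, and diet and disease cannot be told apart. Tissue came from the left lateral lobe of livers that had not been perfused, and blood was part of it. The labelled tissue carried its defining markers, since 15 of 16 listed hepatocyte genes were among the genes tested, and together they made up 4.19 to 5.24% of the counts in controls and 2.60 to 3.84% in NASH. Library depth ran from 16980274 to 28636467 counts among controls, and from 23704607 to 33091460 among animals with NASH. The labels name no batch.

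The liver packs triglyceride and cholesterol onto *APOB*, the structural protein of VLDL, in the endoplasmic reticulum. The microsomal transfer protein encoded by *MTTP* loads the first lipid onto the growing APOB chain, and TM6SF2, a membrane protein of the same compartment, takes part in the later enlargement of the particle. APOA1 and APOA2 are the main proteins of high-density lipoprotein (HDL), and APOE moves between particles and directs remnants to hepatic receptors. Albumin, beta-2-glycoprotein I (the product of *APOH*) and vitronectin (*VTN*) are plasma proteins that hepatocytes secrete in large amounts, and albumin carries fatty acids in blood.

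Expression is given as CPM, counts relative to an animal's library size (per 1e6) after TMM scaling, a method of edgeR that sets most genes to no change between libraries. A gene was taken as differentially expressed when the Benjamini-Hochberg adjusted p of edgeR's quasi-likelihood test over all 11896 genes was under 0.05. On this scale 7 of the 9 members were lower in NASH, 0 were higher, and *APOA1* and *APOE* did not pass. Of all genes tested, 26.0% were lower and 27.9% higher, so that 53.9% passed in either direction. At an unadjusted p under 0.05, 8 members were lower and 0 higher by edgeR's test, against 58.8% of all genes in either direction, and DESeq2 and limma-voom gave 0 higher members too. The median change was −0.83 for the members and 0.00 for all genes on the log2 scale. In 6 members (*ALB*, *APOA2*, *APOB*, *APOH*, *TM6SF2* and *VTN*) every animal with NASH lay below every control, as was so in 15.3% of all genes. A further 18.4% of all genes were apart in the other direction, 33.7% in sum. In bulk liver, fewer hepatocytes and less RNA per hepatocyte cannot be told apart, and this holds for every member. Since the directions of several members depend on the scaling, the values under other scalings follow the members below.

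**Figure D1:**
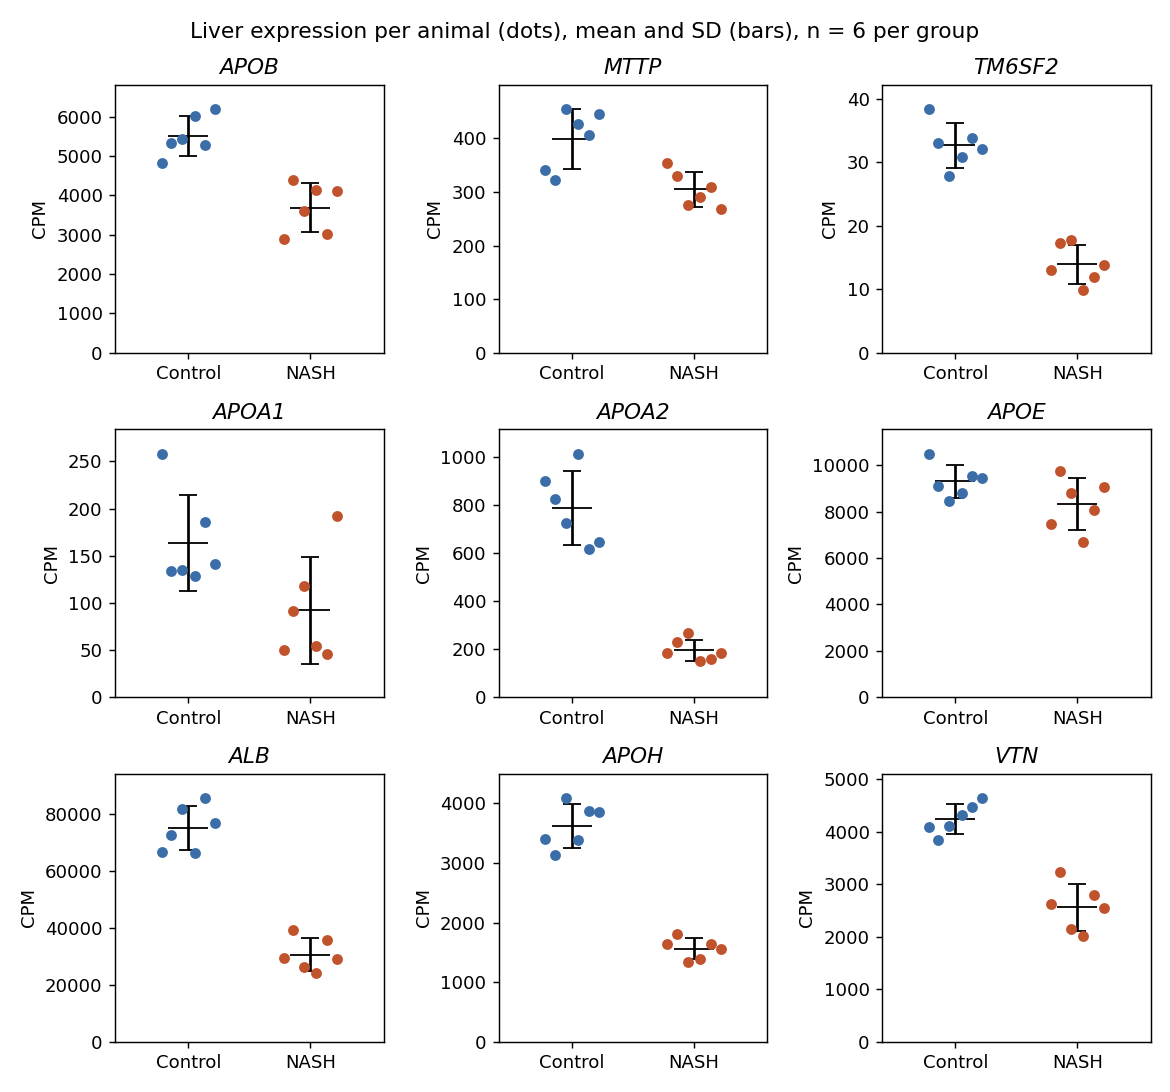
CPM (y axis, linear from 0, TMM scaling) of the 9 members in each of 6 control and 6 NASH livers (dots), with the group mean and SD (bars). The groups are apart in *ALB*, *APOA2*, *APOB*, *APOH*, *TM6SF2* and *VTN* and overlap in *MTTP*, *APOA1* and *APOE*.

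Of the VLDL genes, *APOB* lay between 4812 and 6187 CPM in controls, with a median of 5378 CPM. In NASH it lay between 2893 and 4379 CPM, with a median of 3848 CPM. The highest animal with NASH was thus below the lowest control. The control mean was 5511 ± 509 CPM and the NASH mean 3686 ± 620 CPM (SD, n = 6 each), with −0.58 as the log2 fold change (SE 0.12, edgeR adjusted p = 0.00117). Without TMM scaling, its share of all counts differed by less than the spread between animals, at 0.467 ± 0.043% in controls and 0.435 ± 0.073% in NASH (SD, n = 6 each).

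*MTTP* had the smallest change among the members that passed. Controls lay between 322 and 454 CPM (median 416 CPM), and animals with NASH between 268 and 354 CPM (median 300.2 CPM). The ranges overlapped, because controls 31 and 56, at 341 and 322 CPM, lay below the highest animal with NASH. The log2 fold change was −0.39 (SE 0.10, edgeR adjusted p = 0.00684), or 76.3% of the control level.

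*TM6SF2* changed most among the VLDL genes. Controls lay between 27.8 and 38.4 CPM (median 32.6 CPM), and animals with NASH between 9.88 and 17.8 CPM (median 13.4 CPM), with a wide gap between the groups. The log2 fold change was −1.23 (SE 0.14, edgeR adjusted p = 1.04e-05), so that 42.7% of the control level remained. It was the member with the fewest reads, with 389 to 824 counts per control and 317 to 543 counts per animal with NASH, which is far above the 3 counts that a count of 0 allows.

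The HDL proteins *APOA1* and *APOA2* differed in how they varied between animals. *APOA2* lay between 616 and 1014 CPM in controls (median 777 CPM) and between 151 and 267 CPM in NASH (median 183 CPM). No animal with NASH came near the controls. Its log2 fold change of −2.02 (SE 0.17, edgeR adjusted p = 9.71e-07) was the largest among the members, and 24.7% of the control level remained. Among all 11896 genes it was in place 94 when ordered from the lowest log2 fold change.

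*APOA1* lay between 129 and 258 CPM in controls (median 138 CPM) and between 45.9 and 192 CPM in NASH (median 73.1 CPM). These are levels of the locus that carries the symbol *APOA1*. Of the loci without a symbol numbered between those of *APOA1* and *APOA5*, MSTRG.11004 held far more reads, with 5432 to 7055 CPM in controls and 1534 to 2783 CPM in NASH, and whether reads of *APOA1* lie at such loci was not tested. The level, the fold change and every ratio of *APOA1* therefore hold for its own locus and may not cover the whole gene. Animal 41 with NASH, at 192 CPM, was above 5 of the 6 controls, while animals 9, 11 and 20 were at 45.9, 49.9 and 54.7 CPM. Control 31, at 258 CPM, stood above the other controls. The coefficient of variation was 31% in controls and 61.5% in NASH, the widest of all members. The log2 fold change of −0.83 (SE 0.35) missed the threshold, with an edgeR adjusted p of 0.0597. The call depends on the test and on 1 animal, as DESeq2 gave an adjusted p of 0.0259, limma-voom 0.0234 and limma on the deposited rlog values 0.0240. Without animal 41 with NASH the log2 fold change was −1.18 and the edgeR adjusted p 0.00449.

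*APOE* was the member closest to its control level. Controls lay between 8446 and 10488 CPM (median 9272 CPM) and animals with NASH between 6695 and 9752 CPM (median 8428 CPM), and the ranges overlapped widely. The log2 fold change was −0.16 (SE 0.10, edgeR adjusted p = 0.204), with a 95% interval from −0.37 to 0.04. A decrease nearly as large as that of *MTTP* lay within this interval. As a share of all counts *APOE* stood at 0.790 ± 0.078% in controls and 0.978 ± 0.123% in NASH (SD, n = 6 each).

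Of the plasma proteins, *ALB* lay between 66359 and 85395 CPM in controls (median 74613 CPM) and between 24044 and 39085 CPM in NASH (median 29251 CPM). The groups were far apart. The log2 fold change was −1.29 (SE 0.14, edgeR adjusted p = 6.02e-06), and 40.8% of the control level remained. *ALB* took 6.34 ± 0.53% of the counts of a control and 3.58 ± 0.55% of those of an animal with NASH (SD, n = 6 each). All 9 members together took 8.38 ± 0.51% and 5.55 ± 0.65% of the counts, so *ALB* accounted for most of both.

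*APOH*, whose product binds phospholipids and lipoproteins in plasma, lay between 3139 and 4088 CPM in controls (median 3626 CPM) and between 1338 and 1815 CPM in NASH (median 1597 CPM). It had the smallest coefficient of variation but one in NASH, 11.5%, and its log2 fold change was −1.21 (SE 0.10, edgeR adjusted p = 8.72e-07). *VTN*, an adhesive protein of plasma and matrix, lay between 3847 and 4635 CPM in controls (median 4215 CPM) and between 2011 and 3240 CPM in NASH (median 2580 CPM). Its groups were apart as well, with a log2 fold change of −0.73 (SE 0.11, edgeR adjusted p = 0.000151). *VTN* kept 60.3% of its control level and *APOH* 43.1%.

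The order of the changes was therefore *APOA2*, then *ALB*, *TM6SF2* and *APOH* close together between −1.29 and −1.21, then *APOA1*, *VTN*, *APOB*, *MTTP* and *APOE*. The differences among *ALB*, *TM6SF2* and *APOH* were smaller than their standard errors. Levels of different genes were not compared with each other, because gene lengths of the genome build of the files were not used here.

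The scaling sets how these changes read, because the TMM factors were 0.804 to 0.875 in controls and 1.116 to 1.241 in NASH. With library size alone, that is, as a share of all counts, all genes had a median change of 0.48 (log2), and 7603 genes were higher and 911 lower, against 3318 and 3093 with TMM. On that scale *ALB* (−0.82), *APOA2* (−1.54), *APOH* (−0.74), *TM6SF2* (−0.76) and *VTN* (−0.26, edgeR adjusted p = 0.0263) were still lower. *APOB* did not pass at −0.10 (adjusted p = 0.433), *MTTP* turned to 0.09 without passing (adjusted p = 0.399), and *APOE* turned higher at 0.31 (adjusted p = 0.0161). A change of scaling shifts all genes alike, so the distance of a member from the median of all genes stays as it was by construction.

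The members were also set against 15 hepatocyte markers, none of which is a member, by scaling each library to their summed counts. Abundant markers weigh most in this sum, with control means of 16306 CPM for *SERPINA1*, 13022 CPM for *CYP2E1* and 6079 CPM for *TTR*. The markers changed unequally, with TMM log2 fold changes from −0.18 for *ASGR1* to −2.20 for *TTR*, and −1.93 for *CYP2E1*. Under TMM scaling all 15 markers were lower in NASH (10 lower and 1 higher with library size alone). Their TMM-scaled sum was 47859 to 62896 CPM in controls and 21402 to 34412 CPM in NASH. On this scale the median of all genes was 1.15, and 10568 genes were higher and 182 lower. *APOA2* was the only member still lower, at −0.89 (SE 0.20, edgeR adjusted p = 0.000524). *ALB* (−0.17), *TM6SF2* (−0.10), *APOH* (−0.08) and *APOA1* (0.31) did not pass. *APOB* (0.57), *MTTP* (0.76), *APOE* (0.96) and *VTN* (0.39) were higher relative to these markers. Of the markers themselves, 6 were lower and 5 higher on this scale, so the values hold for this sum and not for hepatocyte mRNA at large. Other lists of hepatocyte genes were not tried.

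**Figure D2:**
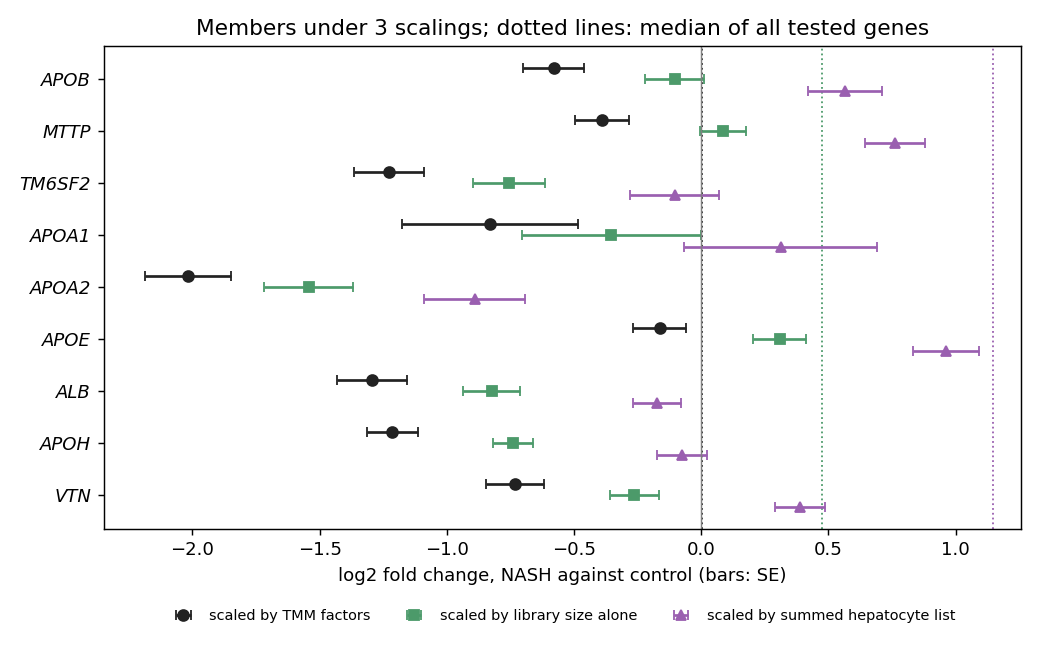
log2 fold change, NASH against control (x axis), of the 9 members under 3 scalings, TMM, library size alone and the sum of 15 hepatocyte markers, with dotted lines at the median of all 11896 genes (0.00, 0.48 and 1.15). *ALB*, *APOA2*, *APOH* and *TM6SF2* lie below 0 under all 3, whereas *APOE* and *MTTP* lie below 0 under TMM only.

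Ratios between members within an animal do not depend on the scaling, and each member was set against *APOB*, the protein that defines the VLDL particle. Of the 8 ratios to *APOB*, 4 fell and 1 rose in NASH by a two-sided exact permutation test, with p adjusted over 9 ratios and 0.00216 as the smallest p that 6 against 6 animals allow. *APOA2* to *APOB* fell by 1.43 on the log2 scale (SE 0.20, exact p = 0.00216, adjusted p = 0.00974), from between −3.26 and −2.42 in controls to between −4.77 and −3.75 in NASH, without overlap. *TM6SF2* to *APOB* fell by 0.65 (SE 0.18, exact p = 0.00216, adjusted p = 0.00974), from between −7.60 and −6.97 to between −8.69 and −7.65, again without overlap. *ALB* to *APOB* fell by 0.72 (SE 0.17) and *APOH* to *APOB* by 0.62 (SE 0.15), each with an exact p of 0.00433 and an adjusted p of 0.00974, and in both the groups overlapped.

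*APOE* to *APOB* was the ratio that rose, by 0.42 (SE 0.14, exact p = 0.0173, adjusted p = 0.0260). Control values ran from 0.55 to 1.12 and NASH values from 0.70 to 1.41, where animal 20 had the lowest value and 5 of the 6 animals lay above every control. With single animals left out this ratio ranged from 0.38 to 0.52, and its adjusted exact p rose to 0.0519 without controls 5, 32 or 45 or without animals 2, 9 or 11 with NASH. For *MTTP* to *APOB* the difference was 0.21 (SE 0.16, exact p = 0.255, adjusted p = 0.328), for *VTN* to *APOB* −0.15 (SE 0.15, exact p = 0.359, adjusted p = 0.359) and for *APOA1* to *APOB* −0.39 (SE 0.35, exact p = 0.292, adjusted p = 0.329). These 3 differences were within the spread between animals, and with single animals left out they ranged from 0.10 (without animal 11 with NASH) to 0.28, from −0.23 (without animal 9 with NASH) to −0.05 (without animal 20 with NASH) and from −0.61 (without animal 41 with NASH) to −0.21 (without control 31), in this order. The ratio between the HDL proteins, *APOA2* to *APOA1*, fell by 1.04 (SE 0.35, exact p = 0.0108, adjusted p = 0.0195), although the groups overlapped, and it rests on the locus that carries the symbol *APOA1*, with the limit given above.

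**Figure D3:**
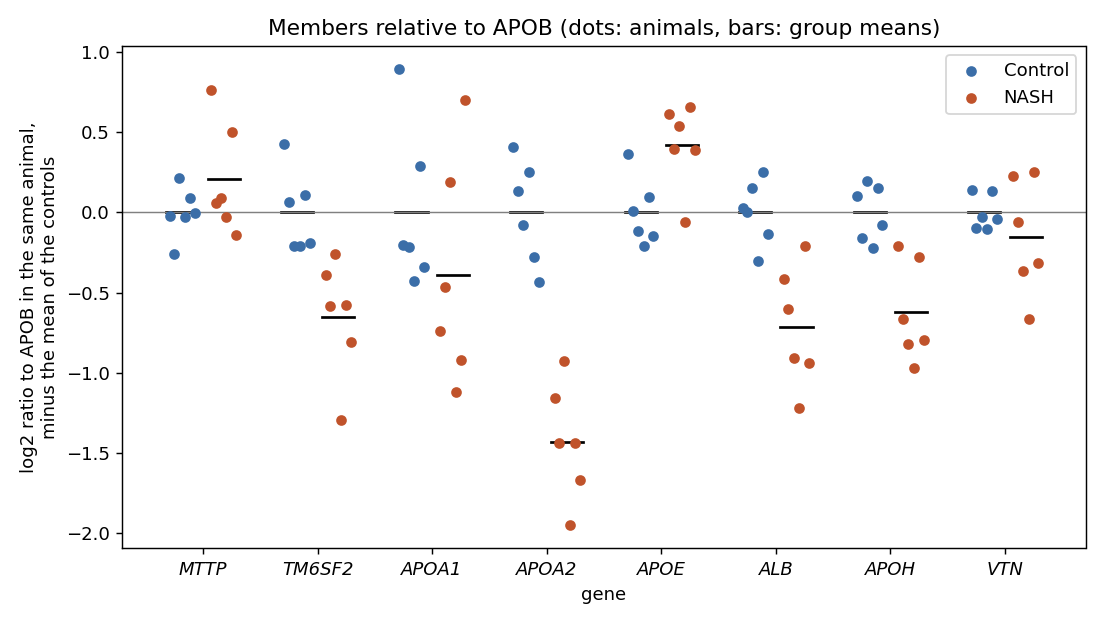
log2 ratio of each member to *APOB* in the same animal (dots), minus the mean of the 6 controls (y axis), with bars at the group means. *APOA2* and *TM6SF2* separate the 6 NASH animals from the 6 controls, and 5 of 6 NASH animals lie above every control for *APOE*.

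The members did not vary as 1 block between animals of the same group. After subtraction of the group means, Pearson's r of log2 CPM was computed over the 12 animals for all 36 pairs, with permutation within the groups and p adjusted over the pairs. It was positive in 24 pairs and negative in 12, with a median of 0.18, and 4 pairs passed. Of these 4 pairs, 3 lay among the plasma proteins *ALB*, *APOH* and *VTN*. For *ALB* and *APOH* r was 0.84 (permutation p = 0.00236, adjusted p = 0.0283, rho = 0.84 with permutation p = 0.00203) and 0.76 without the 2 most distant animals. In each pair these 2 animals were those farthest from the median of the first gene named, so an animal distant in the second gene alone was kept. For *ALB* and *VTN* r was 0.84 (permutation p = 0.0048, adjusted p = 0.0432, rho = 0.83 with permutation p = 0.00508) and 0.63 without the 2 most distant animals, and its adjusted p for rho, 0.0610, missed the threshold. For *APOH* and *VTN* r was 0.82 (permutation p = 0.00194, adjusted p = 0.0283, rho = 0.76 with permutation p = 0.00781) and 0.76 without them, and its adjusted p for rho, 0.0611, missed the threshold too. The fourth pair was *APOE* and *TM6SF2*, with r = 0.88 (permutation p = 0.00159, adjusted p = 0.0283, rho = 0.86 with permutation p = 0.00235) and 0.74 without the 2 most distant animals. In the 8 pairs of *APOB* this r lay between −0.03 and 0.31, but its values within the groups differed, with −0.76 in the 6 controls and 0.58 in the 6 animals with NASH for *APOA1*, and 0.66 and −0.46 for *MTTP*. The difference between these values was not tested. Within the 6 controls and the 6 animals with NASH, r was 0.76 and 0.91 for *ALB* and *APOH*, 0.31 and 0.97 for *ALB* and *VTN*, 0.59 and 0.97 for *APOH* and *VTN*, and 0.96 and 0.87 for *APOE* and *TM6SF2*. All values of an animal share 1 library and 1 scaling factor.

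**Figure D4:**
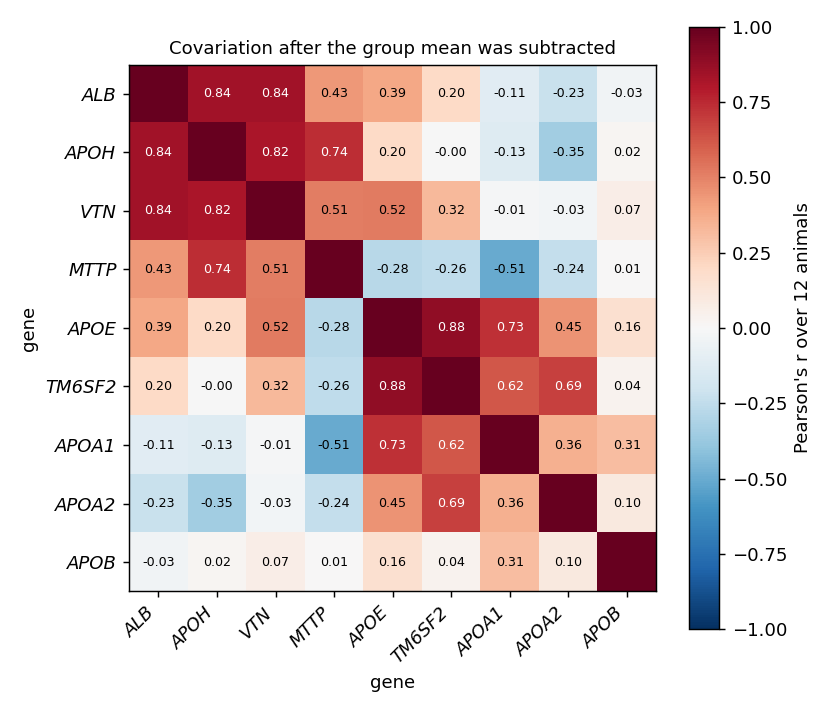
Pearson's r of log2 CPM between members (colour scale) over 12 animals after subtraction of the group means. The block of *ALB*, *APOH* and *VTN* reaches 0.82 to 0.84 and *APOE* with *TM6SF2* reaches 0.88, while *APOB* stays between −0.03 and 0.31 with every other member.

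The genes whose pattern over the 12 animals was most like that of each member were listed by the same residual r, as a description. Each is among the highest r over 11031 rows, so high values are partly a result of this choice. The r that unrelated genes would reach in this way was not tested. *MTTP* was closest to the locus of *MIA2* (r = 0.97), a cargo receptor component that helps large lipoproteins leave the endoplasmic reticulum, whose locus also carries 6 symbols of the CTAGE family. *KYAT3* (0.94) and the thyroid hormone receptor *THRB* (0.91) came next. Near *ALB* stood *PHYH* (0.92) and the complement gene *C8B* (0.90). *APOH* was closest to *HSD17B11* (0.94), the complement gene *C8A* (0.93) and the fatty acid transporter *SLC27A2* (0.92). *VTN* was closest to the HDL-bound paraoxonase *PON1* (0.94), coagulation factor *F12* (0.92) and *BCO1* (0.91).

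The other members were nearest to genes of other kinds. *APOE* was closest to *R3HCC1* (0.95), *CLTB* (0.94) and *SLC25A39* (0.94), and *TM6SF2* to *MYH14* (0.95), a locus shared by *SIN3B* and *F2RL3* (0.93) and *C19orf53* (0.92). *APOA1* was closest to the ribosome-bound *RACK1* (0.91) and *TMEM117* (0.90), and *APOA2* to the actin gene *ACTG1* (0.90), *DUS1L* (0.90) and *HDAC5* (0.88). The nearest gene of *APOB* was *STK26*, with a lower r of 0.85.

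The genes of each list below are to be read against the 26.0% lower and 27.9% higher of all genes. Of 10 tested genes on a list of 15 other apolipoproteins, 5 were lower, 2 were higher and 3 did not pass, with a median log2 fold change of −0.41. *APOA5*, an activator of triglyceride clearance, fell from 1096 ± 154 to 434 ± 147 CPM (SD, n = 6 each; log2 fold change −1.34, edgeR adjusted p = 0.000168). *APOC1* (−0.52), *APOM* (−0.30), *APOOL* (−0.77), a mitochondrial protein despite its name, and *APOC4* (−0.996, on a locus it shares with another symbol) were lower too. *APOD* rose from 41.3 ± 15.1 to 194 ± 70 CPM (log2 fold change 2.23, edgeR adjusted p = 3.61e-05) and *CLU*, which encodes clusterin or apolipoprotein J, from 1911 ± 222 to 4274 ± 222 CPM (1.16, edgeR adjusted p = 5.61e-07), both without overlap. *APOC2* stood at −0.55 with an edgeR adjusted p of 0.0505.

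The genes of VLDL lipidation and of export from the endoplasmic reticulum numbered 22, of which 8 were lower, 5 were higher and 9 did not pass, beside 26.0% lower and 27.9% higher over all genes. Their median was −0.11, and between −0.17 (without control 56) and −0.08 (without control 45) with single animals left out. *DGAT2*, which makes triglyceride in hepatocytes, fell from 509 ± 72 to 223 ± 46 CPM (SD, n = 6 each; log2 fold change −1.19, edgeR adjusted p = 2.56e-05). *P4HB*, which encodes the partner subunit of the *MTTP* product in the transfer complex, was lower by an amount like that of *MTTP* (−0.47, SE 0.08, edgeR adjusted p = 0.000354). The export genes *MIA2* (−0.95), *MIA3* (−0.49), *SAR1B* (−0.68, edgeR adjusted p = 0.0460) and *SURF4* (−0.37, edgeR adjusted p = 0.0498) and also *SVIP* (−0.74) and *CIDEB* (−0.29) were lower. The coat genes *SEC23B* (0.42) and *SEC24D* (0.51), the phospholipid-remodelling *LPCAT3* (0.59), *VMP1* (0.85) and *ERLIN2* (0.17) were higher. Only 5 genes were lower with upper-quartile factors, or without animal 2, 9, 11 or 20 with NASH.

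Of 14 genes for lipoprotein uptake and degradation, 6 were lower and 4 higher, with a median of −0.19, beside 26.0% lower and 27.9% higher over all genes. *MYLIP*, a ubiquitin ligase for the LDL receptor, rose from 10.8 ± 1.5 to 34.7 ± 3.0 CPM (SD, n = 6 each; log2 fold change 1.68, edgeR adjusted p = 1.07e-07). In plasma lipoprotein remodelling 6 of 15 genes were lower and 5 higher, against the same shares, with a median of −0.51, from *PON3* at −1.80 to *LPL*, the lipase of triglyceride-rich particles, at 4.33. Without control 56 this median was −0.30.

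The hepatic plasma proteins that are not members moved in the direction of *ALB*. Of 25 tested, 21 were lower (26.0% of all genes were) and the other 4 did not pass, with a median of −0.70, and 3 of them (*TTR*, *SERPINA1* and *AHSG*) are also on the hepatocyte list. *TTR*, the thyroxine carrier, was lowest at −2.20 (edgeR adjusted p = 6.29e-07), and *CP*, ceruloplasmin, was highest at 0.15 without passing (adjusted p = 0.656). Of 16 transcription factors known to act on genes of this group, 7 were lower, 2 were higher and 7 did not pass, with a median of −0.42. The number that passed in either direction is about the 53.9% of all genes, which split into 26.0% lower and 27.9% higher. *FOXA2* fell from 9.67 ± 3.73 to 2.44 ± 1.46 CPM (SD, n = 6 each; log2 fold change −1.98, edgeR adjusted p = 0.000501). The liver X receptor alpha gene *NR1H3* (−1.24), *CREB3L3* (−0.92), *NR0B2* (−0.56), *FOXA3* (−0.52) and *RORA* (−0.35) were lower as well, whereas *SREBF1* (1.70) and the bile acid receptor gene *NR1H4* (0.52) were higher.

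The directions of these lists also depend on the scaling. With library size alone 63.9% of all genes were higher and 7.66% lower, and relative to the hepatocyte markers 88.8% were higher and 1.53% lower. The list counts under these scalings are to be read against these shares. With library size alone, 13 of the 25 plasma proteins were lower and 2 higher (median −0.25), and of the 16 transcription factors 4 were lower and 3 higher (median 0.05). Of the 10 other apolipoproteins 3 were lower and 4 higher (median 0.06), and of the 22 lipidation and export genes 3 were lower and 10 higher (median 0.36). The uptake list had 1 lower and 6 higher (median 0.28), and the remodelling list 3 lower and 5 higher (median −0.04). Relative to the hepatocyte markers 11 plasma proteins were higher and 3 lower (median 0.33), and 10 transcription factors were higher and 1 lower (median 0.73), where all genes had a median of 1.15. On that scale 12 uptake genes were higher and 1 lower (median 0.94), and 8 remodelling genes higher and 2 lower (median 0.64). By edgeR's test 7 other apolipoproteins (median 0.72) and 18 lipidation and export genes (median 1.04) were higher there and 0 lower, also at an unadjusted p under 0.05.

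**Figure D5:**
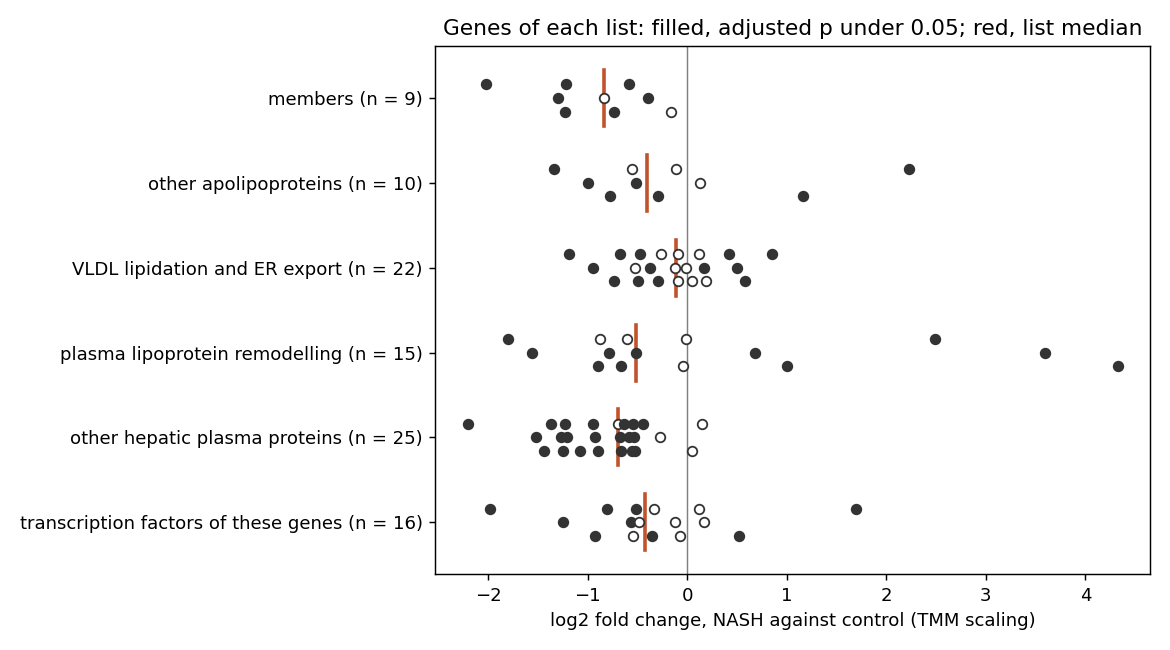
log2 fold change, NASH against control under TMM scaling (x axis), of the 9 members and of the genes of 5 lists (dots, filled where the edgeR adjusted p is under 0.05), with each list's median in red. Members and other hepatic plasma proteins lie almost wholly below 0 and the other lists on both sides.

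Under TMM scaling, markers of some other cells differed between the groups. Their counts are to be read against the 27.9% higher and 26.0% lower of all genes on this scale. Summed stellate cell markers lay between 777 and 921 CPM in controls and between 1694 and 3374 CPM in NASH, and 9 of 11 were higher and 1 lower. Cholangiocyte markers lay between 93.2 and 142 CPM and between 348 and 603 CPM, with 6 of 7 higher. Markers of macrophages, which also express *APOE*, lay between 475 and 966 CPM in controls and between 1183 and 1604 CPM in NASH, with 4 of 11 higher, 1 lower and 6 not past the threshold, and most of the difference was in *GPNMB*, which had 54.0 ± 20.2 CPM in controls and 498 ± 64 CPM in NASH (SD, n = 6 each). Erythroid markers lay between 58.3 and 173 CPM and between 431 and 4560 CPM, with 5 of 5 higher. Endothelial markers lay between 515 and 656 CPM and between 547 and 792 CPM, which overlap, with 3 of 7 higher and 2 lower. T cell markers lay between 57.1 and 114 CPM in controls and between 34.7 and 62.2 CPM in NASH, with 1 of 6 higher, 1 lower and 4 not past the threshold, and most of this sum was *CD3E*, at a mean of 69 and 33 CPM (n = 6 each). Enterocytes, the other main source of *APOB* and *MTTP*, were represented by 2 of 8 listed markers, which went opposite ways. *SI* fell from 55.9 ± 17.5 to 7.37 ± 6.18 CPM (SD, n = 6 each; log2 fold change −2.92, edgeR adjusted p = 0.0130), and *SLC5A1* rose from 0.612 ± 0.375 to 1.78 ± 0.86 CPM (1.58, edgeR adjusted p = 0.00716). Their sum, 39.0 to 81.4 CPM in controls and 1.22 to 15.9 CPM in NASH, is nearly all *SI* in controls. The part of these cells in the levels of the members was not tested.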

How the data were processed

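The authors trimmed single-end reads of stranded mRNA libraries with Trimmomatic 0.38.0, mapped them with HISAT2 2.1.0 to Cavpor3.0, ignored multimapped reads and quantified loci with StringTie 1.3.6 (versions from the submitters' processing notes). They deposited raw counts for 39061 loci without symbols, and log2 values made with the rlog transformation of DESeq2 for 11896 human symbols with a total of at least 200 counts. Repeating that transformation paired each symbol with its count row (largest difference 8.35e-07 in log2 units). In all, 11031 rows stood behind the symbols, and 1515 symbols shared a row.

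Counts were tested in R 4.3.3 with edgeR 4.0.16 (TMM factors, whole-table totals as library size, robust quasi-likelihood, Benjamini-Hochberg over all symbols, threshold 0.05), with no covariate. Log2 CPM used a prior count of 2. An animal without a count could hold up to 3 counts, 0.214 CPM in a control at most and 0.105 CPM in NASH at most, for counting error only. Ratios within an animal were compared by exact permutation over 9 pairs rather than the 11 planned, because *APOA4* was not in the table. Correlations used 100000 permutations within groups. Alternatives were RLE and upper-quartile factors, library size alone, hepatocyte-list scaling, DESeq2 1.42.0, limma 3.58.1 (voom, and on rlog values), other filters, a threshold of 0.01 and each animal left out. The tests were also run on simulated data. Plots were made in matplotlib 3.10.9 under Python 3.11.15.

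The named genes are the members, the highest and lowest gene of each list, the genes past the threshold in the lists of apolipoproteins, VLDL assembly and transcription factors, and the 3 loci most like each member. The members and all lists were chosen with earlier results of these data known. Some genes that fall under this rule are not reported here. *APOC2*, *CYP2E1*, *GPNMB* and *SERPINA1* fall outside it and were chosen after their values were seen. No gene coordinate is given, because the gene table at hand is of another assembly (mCavPor4.1).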

Additional observations from a re-analysis of the deposited data

Results flagged for a closer look

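Among 36 groups of 6 animals looked at for the members and their ratios, 1 held an animal far from the others. The log2 ratio of *APOA2* to *APOA1* was −0.0771 in animal 41 with NASH, the lowest of the 6, and its gap to the nearest animal was 0.641 of the whole range, against a critical value of 0.625. Animal 41 also had the highest *APOA1* level of the NASH group, 192 CPM. About 1 group in 20 is marked by chance alone.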

How the results depend on the processing

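No paired analysis was possible because the groups share no animal numbers. RLE and upper-quartile factors, DESeq2, limma-voom, limma on rlog values and other filters left the direction of every member as reported, and between 5838 and 6683 of all genes passed. With library size alone 1 member was higher, all genes split into 7603 higher and 911 lower, 9 macrophage and 4 T cell markers passed, and *APOE* (0.31) and *MTTP* (0.086) changed sign. With scaling to the hepatocyte list 1 member was lower and 4 higher, 10750 genes passed (10568 higher, 182 lower), and 9 macrophage, 5 T cell and 1 enterocyte markers passed. On that scale *APOB* (0.57), *APOE* (0.96), *MTTP* (0.76), *VTN* (0.39) and, without passing, *APOA1* (0.31) changed sign. These scalings moved the median of all genes to 0.48 and 1.15. With limma-voom 3 erythroid markers passed, and the cause was not tested. With each animal left out, 7 to 8 members were lower, and the *APOE* to *APOB* difference was 0.38 to 0.52, with the loss of its call shown in the report. The lowest count of a member in an animal was 317.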

Other observations

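Rows without a symbol held 20.1 to 21.8% of the counts of an animal, and 7391 of them had a total of at least 200 counts. Of 8 such loci numbered between those of *APOA1* and *APOA5* in the count table, the 2 with the most counts, picked after their values were seen, were MSTRG.11004 and MSTRG.11006. MSTRG.11004 lay between 5432 and 7055 CPM in controls and between 1534 and 2783 CPM in NASH (log2 fold change −1.52, SE 0.13, edgeR adjusted p = 1.61e-06 in the fit over every row). MSTRG.11006 lay between 3743 and 7948 CPM in controls and between 440 and 2274 CPM in NASH (−2.30, SE 0.37, edgeR adjusted p = 0.000416). The tables do not pair these loci with a name, and none is given here.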
